A study of Rattus norvegicus with 21 samples.

Results

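Genes of the actin cytoskeleton and of focal adhesions were followed along a time course of FGF1 in rat NBTII bladder carcinoma cells. A list of 52 genes was taken, and each gene was read from the probe set with the highest mean over 21 arrays among those annotated to its symbol alone. Of the 52 genes, 47 were measured in this way, on a table of 15866 tested probe sets that covers 10411 genes. The transcripts Actb, Cfl1, Dstn and Myl6 were found only on probe sets annotated to several genes, and Itga5 was not in the annotation used here. NBTII is an epithelial line that scatters when it is given growth factors, and the series title speaks of an epithelial to mesenchymal transition (EMT) of carcinoma cells. NBTII-FGFR1 cells, transfected with FGF receptor 1, were sampled at 0, 0.5, 2, 6, 24 and 48 h of FGF1 at 20 ng/ml with heparin, and NBTII cells at the same times. In 9 of the 12 groups of line and time there were 2 arrays, while NBTII-FGFR1 at 0.5 h, NBTII at 0.5 h and NBTII at 0 h had 1 array each. The labels name neither the promoter of the transfected receptor nor whether the line is 1 clone or a pool, and they do not say whether the 2 arrays of a group came from separate cultures. The p-values therefore measure the spread between arrays, which may be technical. No array after 0 h was made without FGF1, so FGF1 cannot be told apart from time, heparin or handling.

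Actin monomers, kept available by thymosin beta 4 and delivered by profilin, are built into filaments that the Arp2/3 complex branches, capping proteins terminate, and cofilin with its partner Wdr1 takes apart. Filaments are bundled by alpha-actinins and filamin and pulled by non-muscle myosin II, and they are anchored to the matrix at focal adhesions, where talin and vinculin link integrins to actin and zyxin and paxillin join as adhesions mature. Ezrin, radixin and moesin tie filaments to the membrane. The rebuilding of adhesions and filaments is known to accompany epithelial scattering. Many of these genes are known targets of serum response factor (SRF), a transcription factor whose cofactors MRTF-A and MRTF-B are held by unpolymerised actin.

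The values are log2 signal intensities made with robust multi-array averaging (RMA). Array medians lay between 6.13 and 6.21, and lower quartiles between 4.36 and 4.54. The 47 genes were abundant, with a median mean level of 10.45 against 6.77 over all genes, and 43 of them lay above the median of all probe sets. Only Cnn1, a smooth muscle calponin gene, stayed below the highest lower quartile in every array. The number of arrays limits the precision.

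The transfected gene was checked first. Fgfr1 signal was 4.56 to 7.58 in 10 of the 11 arrays labelled NBTII-FGFR1 and 3.58 to 4.05 in the 10 NBTII arrays, but the library labelled replicate 1 of NBTII-FGFR1 at 0 h had 3.57, below the lowest NBTII array. A second array stood apart, NBTII-FGFR1 2 h replicate 1, which correlated best with the NBTII 0.5 h array (r = 0.99, against r = 0.988 with its own partner). Its partner and NBTII 2 h replicate 2 also correlated best with each other, across the lines (r = 0.993). They are not counted below among the arrays that stood apart. The series' design text says that neither control cells nor those of 0.5 h had duplicates, while 2 titles name NBTII-FGFR1 at 0 h. The titles were followed here. The library labelled replicate 1 of NBTII-FGFR1 at 0 h enters every NBTII-FGFR1 difference from 0 h. The counts and the calls lost without it are therefore given with those results. Added poly-A spike controls averaged 5.58 to 6.02 in the 18 arrays after 0 h and 6.49 to 7.07 in the 3 arrays at 0 h, so every comparison with 0 h sets these ranges against each other. The part of that difference in the results was not tested. Comparisons of late with early times, and of the lines from 2 to 48 h, do not use the 0 h arrays. Of 8 leukocyte markers, Ptprc, Cd3e, Cd3g, Cd79b and Cd53 lay below the lower quartile in all arrays, as did Col1a2, Pdgfra, Pdgfrb, Lum and Dcn of 8 fibroblast markers and Pecam1 and Kdr of 3 endothelial markers. The other measured markers, among them Col1a1, Col3a1, Thy1 and Vwf, did not lie below it in every array. Summed levels were 8.295 to 9.115 for leukocyte, 7.166 to 7.462 for fibroblast and 5.068 to 5.431 for endothelial markers. Absence of these cell types was not tested.

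Promoter letters are shown for 4 genes described below, 1 pair for each motif found, a choice made after their values were seen. RefSeq promoters of the GRCr8 build, 250 bases before to 50 after the start, were found for 40 of the 47 genes. The CArG box, the letters that SRF binds, was searched on both strands and was found in 2 of 40 promoters (5.0%), those of Actg1 and Lima1, against 1.64% of all 33469 promoters. The AP-1 letters TGANTCA were in 0 of 40 and in 7.33% of all promoters. The TEAD letters GGAATG, searched on both strands, were in 9 of 40 (22.5%), namely Pfn1, Arpc2, Flna, Tpm1, Cald1, Tagln2, Itgb1, Vcl and Zyx, against 14.2% of all. Over 8631 promoters of genes on the array, 1 per gene as for the 40, the shares were 1.41% for the CArG box, 5.47% for AP-1 and 11.5% for TEAD. None of the 40 promoters held both a CArG box and the TEAD letters. A match describes letters only and is neither a binding site nor a cause. The 4 windows below run 5′ to 3′ on the strand of the gene, with the motif in capitals. The first pair holds CArG boxes, 90 bases before the start of Actg1 (chr10:106121002-106121071, minus strand) and 209 before that of Lima1 (chr7:132880513-132880582, minus strand). The second pair, which moved in opposite directions at 6 h in NBTII-FGFR1 cells, holds TEAD letters, 167 bases before the start of Vcl (chr15:3404932-3404997, minus strand) and, in the reverse orientation, 205 before that of Zyx (chr4:72203765-72203830, plus strand).
Actg1: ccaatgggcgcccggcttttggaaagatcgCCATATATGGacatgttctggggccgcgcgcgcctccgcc
Lima1: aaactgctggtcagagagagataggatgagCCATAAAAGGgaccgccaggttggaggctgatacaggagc
Vcl: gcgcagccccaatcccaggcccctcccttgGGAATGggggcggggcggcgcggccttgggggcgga
Zyx: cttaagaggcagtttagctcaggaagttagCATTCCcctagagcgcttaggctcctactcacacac

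The levels of these genes peaked most often at 6 h in both lines. Of the 47 genes, 21 (44.7%) had their highest group mean at 6 h in NBTII-FGFR1 cells, where 27.3% of all genes did, and likewise 21 (44.7%) in NBTII cells, where 15.6% of all genes did. Relative to 0 h, 21 genes were higher and 3 lower at 6 h in NBTII-FGFR1 cells at an adjusted p under 0.05 (limma, Benjamini-Hochberg over all 15866 probe sets), and 19 were higher and 0 lower in NBTII cells. Over all probe sets 9.38% were higher and 11.9% lower in NBTII-FGFR1 cells at 6 h (21.3% in all), and 3.7% were higher and 2.2% lower in NBTII cells (5.9% in all). Of the brighter probe sets alone, those above the median, where 43 of the 47 genes lay, 15.6% were higher in NBTII-FGFR1 cells (36.6% called in all) and 7.6% in NBTII cells. Here and below, calls of the brighter probe sets come from a separate fit, adjusted over those 7933 alone. The calls of the 47 genes come from the fit to all 15866, so the 2 shares rest on unlike cut-offs. The median difference of the 47 genes was 0.32 in NBTII-FGFR1 cells, against 0.02 over all probe sets, and 0.36 in NBTII cells, against -0.02 over all. In bulk RNA, fewer cells of a type and less RNA per cell cannot be told apart. The 14 genes that were higher at 6 h in both lines, 66.7% of those in NBTII-FGFR1 cells and 73.7% of those in NBTII cells, were Actg1, Wdr1, Cap1, Vasp, Actn1, Actn4, Tpm4, Cnn3, Tln1, Zyx, Pxn, Pdlim7, Msn and Rhob. How far the calls of all probe sets were shared by the lines is not given, here or for the overlaps below. Such sharing therefore cannot be read as particular to these genes. Without the library labelled replicate 1 of NBTII-FGFR1 at 0 h the count past the threshold in that line was 18, and the calls of Arpc1b, Actn4, Tpm3, Tln1, Vcl and Rdx were lost (adjusted p from 0.0775 to 0.243). Without NBTII-FGFR1 6 h replicate 2 it was 13, and without NBTII 6 h replicate 1 it was 12 in NBTII cells. The single NBTII 0 h array enters every NBTII difference from 0 h and could not be left out, and it is assumed to vary as the arrays of the other groups do. It was the lowest of all 21 arrays for 8 of the 19 genes higher at 6 h in NBTII cells, Vasp, Flna, Actn4, Myh9, Vcl, Zyx, Msn and Rhob, and for 10 of the 47, where it was the lowest for 5.12% of all probe sets.

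**Figure D1:**
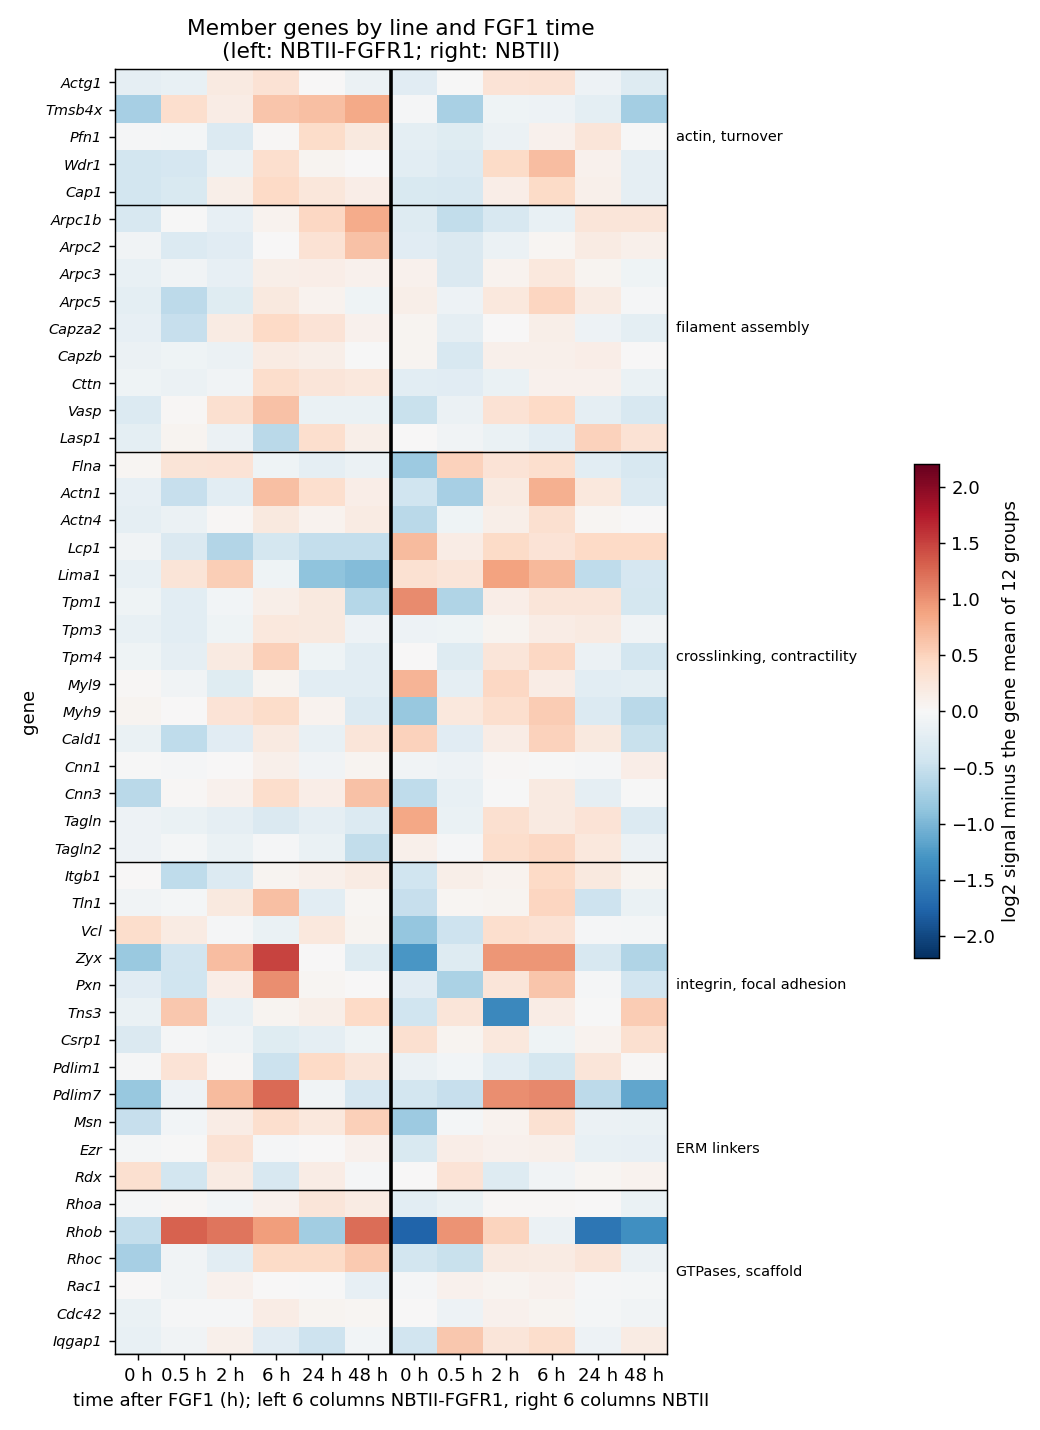
Group means of the 47 genes (rows, grouped by role) in NBTII-FGFR1 cells (left 6 columns) and NBTII cells (right 6 columns) at 0 to 48 h of FGF1. Colour is the log2 signal of a group minus the mean of the gene over the 12 groups. In each line 21 of the 47 genes have their highest group mean at 6 h. Zyx and Pdlim7 are high at both 2 and 6 h, at nearly equal levels in NBTII cells. Rhob has its highest group mean at 0.5 h in both lines.

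Among the genes of actin and its monomer pool, the gene for thymosin beta 4, which sequesters actin monomers, separated the lines. In NBTII-FGFR1 cells Tmsb4x was 10.28 and 10.61 at 0 h, 11.54 at 0.5 h, 11.21 and 11.45 at 2 h, 11.82 and 11.74 at 6 h, 11.70 and 11.96 at 24 h, and 12.06 and 11.95 at 48 h. In NBTII cells it was 11.14 at 0 h, 10.46 at 0.5 h, 11.09 and 11.05 at 2 h, 11.08 and 11.05 at 6 h, 10.83 and 11.08 at 24 h, and 10.43 and 10.40 at 48 h. All NBTII-FGFR1 arrays after 0 h lay above all NBTII arrays, while the order was the opposite at 0 h, where the single NBTII array was the highest of that line. Tmsb4x was higher than at 0 h at 2, 6, 24 and 48 h in NBTII-FGFR1 cells, by 0.89 ± 0.14, 1.34 ± 0.14, 1.39 ± 0.14 and 1.56 ± 0.14 (log2 difference ± SE, adjusted p from 0.00083 at 2 h to 3.9e-06 at 48 h), and it kept those calls without both arrays that stood apart. In NBTII cells it did not pass the test at any time. Gamma actin, Actg1, was 13.83 and 13.69 at 6 h in NBTII-FGFR1 cells, against 13.26 and 13.22 at 0 h, a difference of 0.52 ± 0.13 (adjusted p = 0.00827). In NBTII cells it was 13.90 and 13.61 at 6 h, against 13.19 at 0 h, a difference of 0.56 ± 0.15 (adjusted p = 0.0449). The Actg1 calls were lost in 2 of 18 fits that each left out 1 array for NBTII-FGFR1 and in 9 of 18 for NBTII. The probe sets shared by Actg1 and Actb did not pass the test in any comparison, with differences of 0.27 and 0.20 at 6 h in NBTII-FGFR1 cells, and whether these near-identical transcripts cross-hybridise was not tested. The array's own beta-actin control, at its 5′ end, read 13.27 to 13.55 in the 4 arrays at 6 h and 12.92 to 13.06 in the 3 at 0 h.

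The disassembly factor Wdr1 and the cyclase-associated protein gene Cap1, whose product recycles actin monomers, were higher at 6 h in both lines. Wdr1 was 10.69 and 10.65 at 6 h in NBTII-FGFR1 cells, against 9.96 and 9.83 at 0 h, and 11.02 and 10.93 at 6 h in NBTII cells, against 10.07 at 0 h. The differences were 0.78 ± 0.12 (adjusted p = 0.000357) and 0.91 ± 0.15 (adjusted p = 0.00225), and neither call was lost in the 18 fits that left out 1 array. The single NBTII 0 h array, on which the second difference rests, could not be left out. Cap1 was higher by 0.85 ± 0.11 and 0.77 ± 0.14, and it stayed higher at 24 and 48 h in NBTII-FGFR1 cells, by 0.66 and 0.56, although the 24 h call was lost without NBTII-FGFR1 24 h replicate 2 (adjusted p = 0.0678). Profilin 1, Pfn1, showed no such peak: its differences at 6 h were 0.05 ± 0.14 in NBTII-FGFR1 cells and 0.30 ± 0.17 in NBTII cells, neither past the threshold. Cfl1 and Myl6, read on probe sets shared with their close copies, did not pass the test in any comparison.

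In the group of filament assembly, 5 of 9 genes (55.6%) were higher at 6 h in NBTII-FGFR1 cells and 1 (11.1%) in NBTII cells. In either line 0 were lower. Of all probe sets 9.38% and 3.7% were higher in these lines at 6 h, and of the brighter ones 15.6% and 7.6%. Of the 5 calls in NBTII-FGFR1 cells, only that of Vasp was kept in all 18 fits that left out 1 array. The gene in common was Vasp, which encodes an elongation factor that keeps barbed ends growing. Vasp was 9.79 and 9.98 at 6 h in NBTII-FGFR1 cells, against 8.86 and 9.03 at 0 h, and 9.65 and 9.70 at 6 h in NBTII cells, against 8.76 at 0 h. It was 1.92 times as high at 6 h as at 0 h in NBTII-FGFR1 cells (0.94 ± 0.14, adjusted p = 0.000257) and 1.89 times in NBTII cells (0.92 ± 0.17, adjusted p = 0.0052). The Arp2/3 subunits did not move alike. Arpc1b was 11.62 and 11.60 at 0 h, 11.95 at 0.5 h, 11.91 and 11.67 at 2 h, 12.03 and 12.06 at 6 h, 12.21 and 12.65 at 24 h, and 12.82 and 12.73 at 48 h in NBTII-FGFR1 cells. In NBTII cells it was 11.68 at 0 h, 11.43 at 0.5 h, 11.60 and 11.62 at 2 h, 11.76 and 11.87 at 6 h, 12.14 and 12.34 at 24 h, and 12.18 and 12.30 at 48 h, so in both lines its 4 highest arrays were those of 24 and 48 h. It was 1.17 ± 0.14 higher at 48 h than at 0 h in NBTII-FGFR1 cells (adjusted p = 4.06e-05), and Arpc2 was 0.72 ± 0.10 higher (adjusted p = 0.000201). Arpc5 had differences at 6 h of 0.43 in NBTII-FGFR1 cells (adjusted p = 0.03) and 0.35 in NBTII cells (adjusted p = 0.265). The NBTII-FGFR1 value was 0.21 without NBTII-FGFR1 0 h replicate 2 (adjusted p = 0.347), and the call was also lost without 6 h replicate 2 (adjusted p = 0.2). Arpc3 passed the test in no comparison. The capping protein subunit Capza2 and cortactin, Cttn, which stabilises branches, were higher at 6 h in NBTII-FGFR1 cells by 0.62 ± 0.13 and 0.48 ± 0.10, and both calls were lost without NBTII-FGFR1 6 h replicate 2 (adjusted p = 0.0627 and 0.0593). The other capping subunit, Capzb, passed the test in no comparison.

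Among crosslinkers and the contractile genes, 5 of 15 (33.3%) were higher at 6 h in NBTII-FGFR1 cells, and 6 (40.0%) in NBTII cells. The shares of all probe sets that were higher were 9.38% and 3.7%, and those of the brighter ones 15.6% and 7.6%. Alpha-actinin 1, Actn1, was 11.96 and 11.83 at 6 h in NBTII-FGFR1 cells, against 10.97 and 11.14 at 0 h, and averaged 12.02 in the 2 arrays at 6 h in NBTII cells, against 10.79 in the array at 0 h. The differences were 0.84 ± 0.18 (adjusted p = 0.0033) and 1.23 ± 0.21 (adjusted p = 0.00366). Tropomyosin 4, Tpm4, which coats filaments, was higher by 0.63 ± 0.10 in NBTII-FGFR1 cells and by 0.45 ± 0.12 in NBTII cells, where the call was lost in 14 of 18 fits that left out 1 array. Calponin 3, Cnn3, rose by 0.99 ± 0.14 in NBTII-FGFR1 cells and was still 1.23 ± 0.14 higher at 48 h. Filamin A, Flna, a crosslinker that links actin to integrins, and the non-muscle myosin heavy chain Myh9 passed the test in NBTII cells. Flna was 10.43 and 10.54 at 0 h, 10.73 at 0.5 h, 10.64 and 10.88 at 2 h, 10.31 and 10.40 at 6 h, 10.32 and 10.19 at 24 h, and 10.40 and 10.24 at 48 h in NBTII-FGFR1 cells, and 9.64 at 0 h, 10.96 at 0.5 h, 10.73 and 10.77 at 2 h, 11.02 and 10.60 at 6 h, 10.40 and 10.03 at 24 h, and 10.24 and 9.95 at 48 h in NBTII cells. The NBTII 0 h array was the lowest of all 21 for Flna, while the NBTII-FGFR1 arrays at 6 h did not stand above those at 0 h. Its differences at 6 h were -0.13 ± 0.16 in NBTII-FGFR1 cells (adjusted p = 0.635) and 1.17 ± 0.20 in NBTII cells (adjusted p = 0.00273). Myh9 differed by 0.34 ± 0.19 in NBTII-FGFR1 cells (adjusted p = 0.26) and by 1.39 ± 0.24 in NBTII cells (adjusted p = 0.00314). A further Myh9 probe set, whose annotation lists the symbol repeatedly, passed the test at 6 h in both lines, by 0.88 and 1.65.

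The smooth muscle genes of this group were low. Tagln, the SM22 gene, was 4.10 and 4.15 at 0 h, 4.08 at 0.5 h, 3.87 and 4.19 at 2 h, 3.79 and 4.05 at 6 h and 3.96 and 4.10 at 24 h and averaged 3.94 over the 2 arrays of 48 h in NBTII-FGFR1 cells, below the lower quartile throughout. In NBTII cells Tagln was 5.09 at 0 h, 4.09 at 0.5 h, 4.27 and 4.92 at 2 h, 4.01 and 4.85 at 6 h, 4.44 and 4.63 at 24 h, and 3.86 and 3.996 at 48 h, with pairs that lay far apart at 2 and 6 h. Cnn1 lay between 3.92 and 4.34 in all 21 arrays and passed no test. Caldesmon, Cald1, and Tpm1 also passed no test, and the NBTII pairs of Tpm1 lay apart, at 10.22 and 11.19 at 2 h and 10.51 and 11.14 at 6 h. The summed level of 6 smooth and striated muscle markers, of which Actg2 lay below the lower quartile in all arrays, was higher at 6 h than at 0 h in both lines. It was 8.02 to 8.15 at 6 h in NBTII-FGFR1 cells, against 7.73 to 7.75 at 0 h, and 7.97 to 8.13 at 6 h in NBTII cells, against 7.78 at 0 h. In NBTII cells it was also 7.96 to 8.28 at 2 h. Its part in the 6 h results was not tested.

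Zyx, a focal adhesion gene, had the largest difference of the 47 genes at 6 h in both lines. Zyxin, which binds alpha-actinin and VASP at maturing adhesions, was 7.66 and 7.90 at 0 h, 8.18 at 0.5 h, 8.54 and 10.02 at 2 h, 9.82 and 10.36 at 6 h, 8.54 and 8.68 at 24 h, and 8.42 and 8.22 at 48 h in NBTII-FGFR1 cells. In NBTII cells Zyx was 7.32 at 0 h, 8.32 at 0.5 h, 9.52 and 9.63 at 2 h, 9.70 and 9.45 at 6 h, 8.21 and 8.27 at 24 h, and 7.90 and 7.98 at 48 h. Every array at 6 h lay above every array at 0, 0.5, 24 and 48 h in both lines. At 6 h Zyx was 4.96 times as high as at 0 h in NBTII-FGFR1 cells (2.31 ± 0.32, adjusted p = 0.000148) and 4.77 times in NBTII cells (2.25 ± 0.39, adjusted p = 0.00312). At 2 h the NBTII-FGFR1 arrays of Zyx lay far apart, 8.54 and 10.02, the lower being the array that stood apart. Pdlim7, which encodes the PDZ and LIM domain protein enigma, was 6.89 and 7.13 at 0 h, 7.74 at 0.5 h, 8.06 and 9.03 at 2 h, 8.91 and 9.29 at 6 h, 7.76 and 7.79 at 24 h, and 7.63 and 7.31 at 48 h in NBTII-FGFR1 cells. In NBTII cells Pdlim7 was 7.45 at 0 h, 7.34 at 0.5 h, 8.62 and 9.11 at 2 h, 8.74 and 9.05 at 6 h, 6.99 and 7.53 at 24 h, and 6.62 and 6.78 at 48 h. It too was high at 2 and 6 h in both lines, with differences at 6 h of 2.09 ± 0.27 in NBTII-FGFR1 cells (adjusted p = 9.6e-05) and 1.45 ± 0.33 in NBTII cells (adjusted p = 0.0171), where the call was lost without NBTII 6 h replicate 2 (adjusted p = 0.0812). A dimmer Pdlim7 probe set gave 0.96 in NBTII-FGFR1 cells (adjusted p = 0.000726) and 0.16 in NBTII cells (adjusted p = 0.800) at 6 h, and at 2 h in NBTII cells it gave -0.03, opposite in sign to the brighter one. Paxillin, the scaffold Pxn, was 10.46 and 10.84 at 6 h in NBTII-FGFR1 cells, against 9.30 and 9.44 at 0 h, and 10.18 and 10.27 at 6 h in NBTII cells, against 9.37 at 0 h. Pxn rose by 1.28 ± 0.20 (adjusted p = 0.000337) and 0.86 ± 0.24 (adjusted p = 0.0482), and the NBTII call was lost in 12 of 18 fits that left out 1 array. Talin 1, Tln1, the integrin activator, was higher by 0.74 ± 0.20 in NBTII-FGFR1 cells and 0.98 ± 0.24 in NBTII cells. The Tln1 call in NBTII-FGFR1 cells was lost without the library labelled replicate 1 of NBTII-FGFR1 at 0 h (adjusted p = 0.0875) and without 6 h replicate 2 (adjusted p = 0.0901), and that in NBTII cells without 6 h replicate 1 (0.69, adjusted p = 0.184).

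Vinculin, which bears load between talin and actin, differed between the lines in direction. Vcl was 9.58 and 9.72 at 0 h, 9.45 at 0.5 h, 9.05 and 9.46 at 2 h, 9.23 and 9.03 at 6 h, 9.47 and 9.52 at 24 h, and 9.26 and 9.41 at 48 h in NBTII-FGFR1 cells. In NBTII cells Vcl was 8.41 at 0 h, 8.81 at 0.5 h, 9.85 and 9.43 at 2 h, 9.70 and 9.48 at 6 h, 9.29 and 9.20 at 24 h, and 9.11 and 9.33 at 48 h. In NBTII-FGFR1 cells both arrays at 6 h lay below both at 0 h, whereas in NBTII cells all arrays from 2 h on lay above the single 0 h array, which was the lowest of all 21. Vcl fell by 0.52 ± 0.16 at 6 h in NBTII-FGFR1 cells (adjusted p = 0.0312) and rose by 1.17 ± 0.20 in NBTII cells (adjusted p = 0.0028). The fall was lost without either NBTII-FGFR1 0 h array and without 6 h replicate 2 (adjusted p = 0.0775, 0.165 and 0.198), and a further Vcl probe set gave -0.20 in NBTII-FGFR1 cells (adjusted p = 0.467) and 1.12 in NBTII cells (adjusted p = 0.00517). The difference between the lines in their 6 h responses, a comparison added after the data were seen, was -1.69 ± 0.25 for Vcl (adjusted p = 0.0126). Tmsb4x passed this comparison upward with 1.42 ± 0.22 (adjusted p = 0.0126), and Flna downward with -1.30 ± 0.25 (adjusted p = 0.0424). These 3 of 47 genes compare with 0.403% of all probe sets, of which 0.0945% were higher and 0.309% lower. Without NBTII 6 h replicate 1 the adjusted p-values were 0.0691 for Vcl, 0.0661 for Tmsb4x and 0.166 for Flna, and all rest on the single NBTII 0 h array. The Flna call was lost in 12 of 18 such fits, among them that without the library labelled replicate 1 of NBTII-FGFR1 at 0 h (adjusted p = 0.0929).

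Integrin beta 1, the common beta chain of matrix receptors, was 11.42 and 11.07 at 6 h in NBTII-FGFR1 cells, against 11.50 and 10.90 at 0 h, and 11.59 and 11.67 at 6 h in NBTII cells, against 10.74 at 0 h. The 2 arrays at 6 h in NBTII-FGFR1 cells lay between those at 0 h, and the difference of 0.05 ± 0.20 did not pass the test there (adjusted p = 0.905), while that of 0.89 ± 0.24 did in NBTII cells (adjusted p = 0.0409). Leaving out either NBTII-FGFR1 0 h array moved the NBTII-FGFR1 value to -0.25 or 0.35. The NBTII call was lost in 8 of 18 fits that left out 1 array (adjusted p up to 0.128), and the further Itgb1 probe set gave 0.72 there (adjusted p = 0.0587). Tensin 3, Tns3, an adhesion scaffold, was 8.71 and 9.04 at 0 h, 9.62 at 0.5 h, 9.48 and 8.24 at 2 h, 9.31 and 8.85 at 6 h, 9.12 and 9.18 at 24 h, and 9.33 and 9.58 at 48 h in NBTII-FGFR1 cells. In NBTII cells Tns3 was 8.58 at 0 h, 9.28 at 0.5 h, 7.27 and 7.93 at 2 h, 9.10 and 9.25 at 6 h, 9.13 and 8.91 at 24 h, and 9.65 and 9.52 at 48 h. The 2 h arrays were the lowest of the NBTII course, and the 2 h pair of NBTII-FGFR1 cells lay far apart. It did not pass the test against 0 h at any time. Pdlim1, which binds alpha-actinin, was 11.11 and 10.83 at 6 h in NBTII-FGFR1 cells, against 11.33 and 11.51 at 0 h, and fell by 0.45 ± 0.12 (adjusted p = 0.015). The third gene lower at 6 h in that line was radixin, Rdx, which fell by 0.71 ± 0.20 (adjusted p = 0.0163). Rdx was 9.03 and 8.86 at 6 h, against 9.72 and 9.59 at 0 h. Both falls were lost without NBTII-FGFR1 6 h replicate 2 (adjusted p = 0.167 for Pdlim1 and 0.116 for Rdx). That of Pdlim1 was also lost without 0 h replicate 2 (adjusted p = 0.129), and that of Rdx without the library labelled replicate 1 of NBTII-FGFR1 at 0 h (adjusted p = 0.114).

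Of the membrane linkers, moesin rose and ezrin did not pass the test in any comparison. Msn was 11.72 and 11.36 at 6 h in NBTII-FGFR1 cells, against 10.62 and 10.70 at 0 h, and 11.62 and 11.39 at 6 h in NBTII cells, against 10.38 at 0 h. The differences were 0.88 ± 0.14 (adjusted p = 0.00045) and 1.13 ± 0.17 (adjusted p = 0.00142), and in NBTII-FGFR1 cells Msn was still 1.04 ± 0.14 higher at 48 h.

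Among the small GTPases, RhoB and RhoC changed, and RhoA, Rac1 and Cdc42 passed the test in no comparison. RhoB is an endosomal GTPase known as an immediate-early product, and its gene was already high at 0.5 h. In NBTII-FGFR1 cells Rhob was 6.54 and 6.68 at 0 h, 8.43 at 0.5 h, 8.83 and 7.78 at 2 h, 7.80 and 8.29 at 6 h, 5.92 and 6.82 at 24 h, and 8.68 and 8.06 at 48 h. In NBTII cells Rhob was 5.37 at 0 h, 8.12 at 0.5 h, 7.81 and 7.44 at 2 h, 6.92 and 7.07 at 6 h, 5.69 and 5.40 at 24 h, and 5.78 and 5.78 at 48 h. In NBTII cells it came back to 5.40 to 5.78 at 24 and 48 h, whereas in NBTII-FGFR1 cells it was near its 0 h level at 24 h and high again at 48 h. Averaged over both lines, Rhob was 2.29 ± 0.30 higher at 0.5 h than at 0 h (adjusted p = 0.000711), with 1 array per line at 0.5 h. Together with Flna (0.78 ± 0.15) and Msn (0.61 ± 0.13) it was 1 of 3 genes higher at 0.5 h, where 1.68% of all probe sets were higher, and without either NBTII-FGFR1 2 h array the count past the threshold was 7. The Msn call at 0.5 h was lost without the library labelled replicate 1 of NBTII-FGFR1 at 0 h (adjusted p = 0.0748). At 48 h in NBTII-FGFR1 cells Rhob was 1.76 ± 0.32 above 0 h (adjusted p = 0.00111). RhoC, whose gene is known for a role in cell motility, climbed in NBTII-FGFR1 cells: Rhoc was 8.64 and 8.80 at 0 h, 9.38 at 0.5 h, 9.13 and 9.33 at 2 h, 9.93 and 9.83 at 6 h, 9.71 and 10.04 at 24 h, and 10.13 and 9.95 at 48 h. In NBTII cells Rhoc was 9.05 at 0 h, 8.98 at 0.5 h, 9.83 and 9.49 at 2 h, 9.68 and 9.60 at 6 h, 9.70 and 9.77 at 24 h, and 9.22 and 9.42 at 48 h. All NBTII-FGFR1 arrays from 6 h on lay above both 0 h arrays, and the differences were 1.16 ± 0.14 at 6 h, 1.16 ± 0.14 at 24 h and 1.32 ± 0.14 at 48 h (adjusted p = 7.66e-05, 0.000413 and 2.31e-05). In NBTII cells Rhoc did not pass the test against 0 h. Iqgap1, a scaffold for Rac1 and Cdc42, differed at 6 h by -0.08 ± 0.16 in NBTII-FGFR1 cells (adjusted p = 0.798) and 0.80 ± 0.20 in NBTII cells (adjusted p = 0.0273), a call lost without either NBTII 6 h array (adjusted p = 0.128 and 0.0595).

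**Figure D2:**
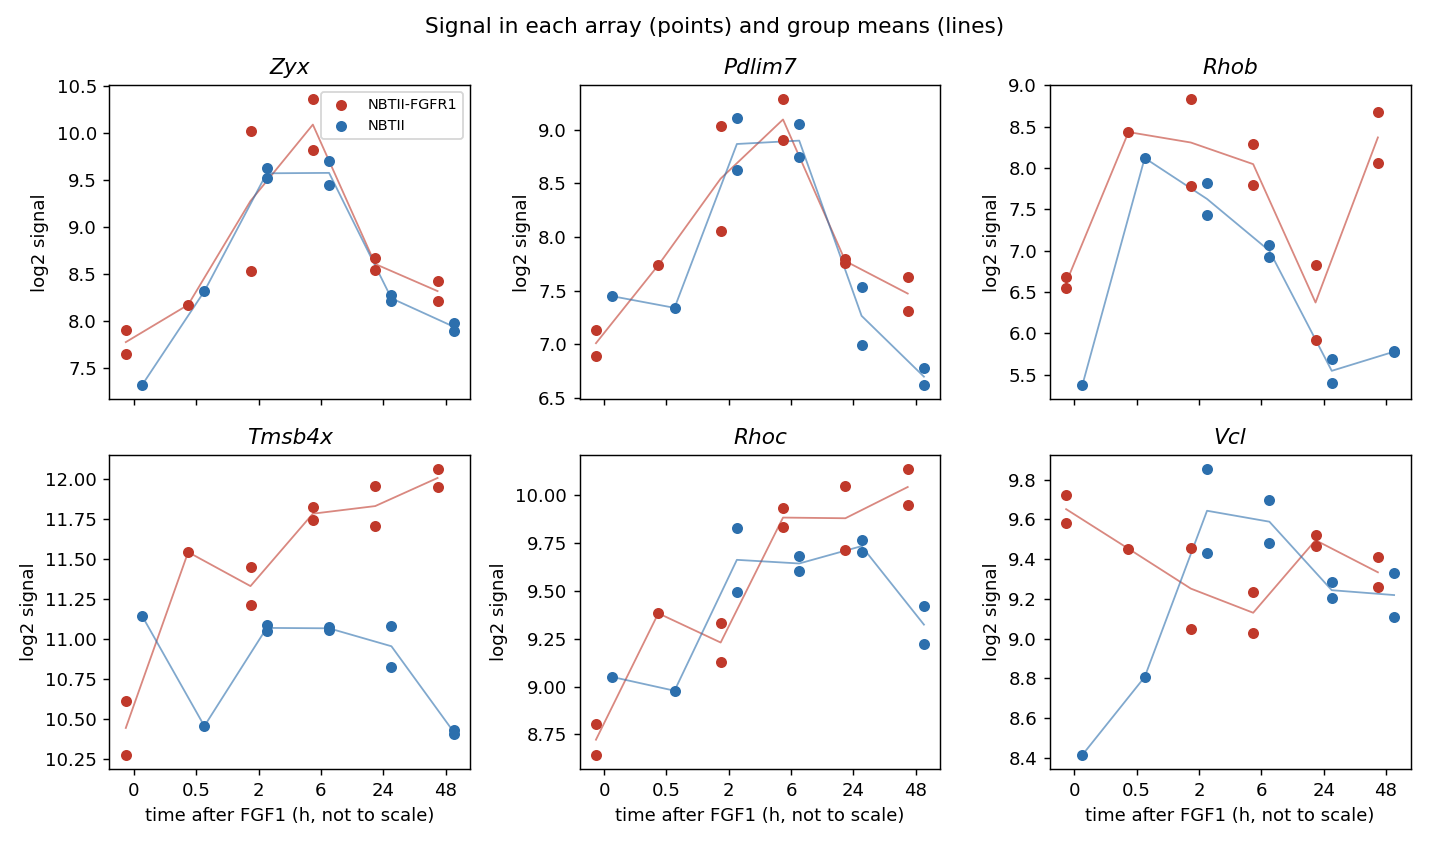
Log2 signal of 6 genes in every array (points) with group means (lines) against time after FGF1, NBTII-FGFR1 in red and NBTII in blue. Zyx and Pdlim7 are high at 2 and 6 h in both lines, Tmsb4x and Rhoc stay high to 48 h in NBTII-FGFR1 cells, Rhob is high again at 48 h in that line (8.68 and 8.06), and Vcl at 6 h lies below 0 h in NBTII-FGFR1 cells and above it in NBTII cells.

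At 2 h, 9 genes were higher than at 0 h in NBTII-FGFR1 cells and 10 in NBTII cells, and 0 were lower in either. Of all probe sets 5.27% were higher and 4.08% lower in NBTII-FGFR1 cells (9.35% in all), and 1.95% higher and 0.983% lower in NBTII cells (2.94% in all). Of the brighter probe sets 8.85% were higher in NBTII-FGFR1 cells (15.3% called in all), beside 19.1% of the 47 genes. In NBTII cells 4.11% of the brighter probe sets were higher (6.33% called in all), beside 21.3% of the 47 genes. Vasp, Zyx, Pdlim7, Msn and Rhob were higher in both lines, 55.6% of the genes of NBTII-FGFR1 cells and 50.0% of those of NBTII cells. Tmsb4x, Cap1, Cnn3 and Rhoc passed the test in NBTII-FGFR1 cells, and Wdr1, Flna, Actn4, Myh9 and Vcl in NBTII cells. The single NBTII 0 h array was the lowest of all 21 for 8 of the 10 genes higher in NBTII cells, all but Wdr1 and Pdlim7. It was the lowest for 5.12% of all probe sets. Without NBTII 2 h replicate 2 the NBTII calls of Wdr1, Vasp, Actn4, Myh9 and Pdlim7 were lost, with differences of 0.62, 0.67, 0.54, 1.04 and 1.18. Zyx at 2 h was 1.499 ± 0.315 higher in NBTII-FGFR1 cells and 2.25 ± 0.39 in NBTII cells, and without both arrays that stood apart the NBTII-FGFR1 value was 2.12 (adjusted p = 0.000283), but without the library labelled replicate 1 of NBTII-FGFR1 at 0 h alone it was 1.38 and lost the call (adjusted p = 0.0846). Without that array the NBTII-FGFR1 count at 2 h was 4, with Vasp, Cnn3, Zyx, Msn and Rhoc lost. Without both arrays that stood apart it was likewise 4, with Vasp, Cnn3, Msn, Rhob and Rhoc lost, and Rhob was then 1.11 higher (adjusted p = 0.138), against 1.70 with all arrays. At 24 h 10 genes were higher in NBTII-FGFR1 cells (of all probe sets 3.57% were higher and 2.73% lower, 6.3% in all), and at 48 h 10 were higher and 2 lower (10.5% and 10.9% of all probe sets, 21.4% in all). Of the brighter probe sets 11.1% were called at 24 h, beside 21.3% of the 47 genes. At 48 h 37.0% of the brighter probe sets were called, a larger share than the 25.5% of the 47 genes. Tmsb4x, Cap1, Cnn3, Msn and Rhoc were higher at each of 2, 6, 24 and 48 h. Without the library labelled replicate 1 of NBTII-FGFR1 at 0 h the 48 h count was 8, with Wdr1, Cttn, Lima1 and Tagln2 lost. The 24 h count was 4 without it, 2 without NBTII-FGFR1 24 h replicate 2, and 17 without either 2 h array of that line. Only Tmsb4x and Rhoc kept their 24 h calls in all 18 fits that left out 1 array. The genes lower at 48 h were Lima1, which encodes the bundling protein EPLIN, with -0.79 ± 0.22, and Tagln2 with -0.42 ± 0.13. These 2 lost the call with adjusted p = 0.193 and 0.208 without the library labelled replicate 1 of NBTII-FGFR1 at 0 h. In NBTII cells limma called 0 of the 47 genes at 24 h and 0 at 48 h, where 0.939% and 0.908% of all probe sets were called either way (0.567% higher and 0.372% lower at 24 h, 0.58% and 0.328% at 48 h). An unadjusted limma p under 0.05 was found for 22 and 18 of the 47 genes. The share of all probe sets at that unadjusted threshold is not given here, so these 2 counts have nothing to be set beside.

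Late (24 and 48 h) and early (2 and 6 h) times were compared within each line, which needs no 0 h array. In NBTII-FGFR1 cells 7 genes were higher and 10 lower at the late times (9.69% and 7.48% of all probe sets, 17.2% in all), and in NBTII cells 4 were higher and 19 lower (6.09% and 5.82%, 11.9% in all). These are 36.2% and 48.9% of the 47 genes, beside 30.4% and 22.8% of the brighter probe sets. The median over the 47 genes was -0.01 in NBTII-FGFR1 cells, against -0.01 over all probe sets, and -0.27 in NBTII cells, against 0.03 over all. All 10 genes lower in NBTII-FGFR1 cells were among the 19 lower in NBTII cells (52.6% of these, with no overlap over all probe sets to set beside it). They were Actg1, Vasp, Lima1, Tpm4, Myh9, Tln1, Zyx, Pxn, Pdlim7 and Rhob. In NBTII-FGFR1 cells Actg1 and Myh9 lost this call in 4 of 18 fits that left out 1 array, Tln1 in 3 and Pxn in 1. Without both arrays that stood apart Actg1 and Rhob lost it, while Tagln2, Itgb1 and Tns3 then passed the test. In NBTII cells the lower call was lost in 10 of 18 fits that left out 1 array for Vcl, 6 for Myl9, 5 for Msn and 4 for Tagln2. It was lost there in 3 for Tln1 and for Tmsb4x, and in 1 for Cap1. Zyx fell by 1.22 ± 0.22 in NBTII-FGFR1 cells (adjusted p = 0.00161) and by 1.48 ± 0.22 in NBTII cells (adjusted p = 0.000537). Pdlim7 fell by 1.20 ± 0.19 and 1.90 ± 0.19 (adjusted p = 0.00055 and 2.02e-05), although its dimmer probe set gave -0.11 and -0.09, neither past the threshold. Lima1 was 8.54 and 8.06 at 24 h and 8.23 and 8.23 at 48 h in NBTII-FGFR1 cells, against 9.86 and 9.59 at 2 h and 9.45 and 8.72 at 6 h. In NBTII cells Lima1 was 8.73 and 8.52 at 24 h and 8.88 and 8.75 at 48 h, against 9.999 and 10.15 at 2 h and 9.98 and 9.80 at 6 h. It fell by 1.14 ± 0.15 in NBTII-FGFR1 cells and 1.26 ± 0.15 in NBTII cells (adjusted p = 0.000156 and 0.000108). Rhob fell by 0.81 ± 0.23 in NBTII-FGFR1 cells (adjusted p = 0.0235) and by 1.65 ± 0.23 in NBTII cells (adjusted p = 0.000281). In NBTII-FGFR1 cells its 24 h arrays were low and its 48 h arrays high, and the call was lost in 4 of 18 fits that left out 1 array (adjusted p up to 0.115). Destrin, a filament-severing relative of cofilin, was read on a pair of probe sets it shares with a copy. The brighter gave -0.26 in NBTII-FGFR1 cells (adjusted p = 0.0486) and -0.26 in NBTII cells (adjusted p = 0.0637), and the dimmer -0.31 and -0.41 (adjusted p = 0.0154 and 0.00409).

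A smaller group was higher late. Arpc1b, Lasp1 and Pdlim1 were higher in both lines, 42.9% of the genes of NBTII-FGFR1 cells and 75.0% of those of NBTII cells. Lasp1, which encodes a LIM and SH3 protein of adhesions, was 10.79 and 10.84 at 24 h and 10.56 and 10.59 at 48 h in NBTII-FGFR1 cells, against 10.57 and 10.06 at 2 h and 10.13 and 9.57 at 6 h. It rose by 0.61 ± 0.12 there and by 0.60 ± 0.12 in NBTII cells (adjusted p = 0.00288 and 0.00407). Arpc1b rose by 0.69 ± 0.10 and 0.53 ± 0.10, and Pdlim1 by 0.58 ± 0.09 and 0.46 ± 0.09. Arpc2 rose by 0.61 ± 0.07 in NBTII-FGFR1 cells (adjusted p = 6.86e-05), and its difference in NBTII cells was 0.20 ± 0.07 (adjusted p = 0.102). Tns3 rose by 0.91 ± 0.21 in NBTII cells (adjusted p = 0.0109), where its 2 h arrays were the low ones. Tmsb4x moved in opposite directions, 0.36 ± 0.10 in NBTII-FGFR1 cells (adjusted p = 0.0179) and -0.38 ± 0.10 in NBTII cells (adjusted p = 0.0172). These calls were lost in 4 and 3 of 18 fits that left out 1 array, with values of 0.30 to 0.34 and -0.38 to -0.32 in the fits that lost them. The difference between the lines in this late minus early change was 0.74 ± 0.14 (adjusted p = 0.0448), the only call among the 47 genes, where 0.164% of all probe sets were called (0.101% higher and 0.063% lower). It was lost in 13 of 18 fits that left out 1 array (adjusted p up to 0.173) and without both arrays that stood apart (adjusted p = 0.0515). The late and early arrays did not overlap for 9 of the 47 genes (19.1%) in NBTII-FGFR1 cells, where they did not for 10.1% of all probe sets and 15.0% of the brighter ones. In NBTII cells they did not overlap for 21 genes (44.7%), beside 13.2% of all probe sets and 20.2% of the brighter ones. The summed level of 7 epithelial markers, of which Krt19 lay below the lower quartile, moved with these changes. It was 11.93 to 12.54 late and 13.49 to 13.94 early in NBTII-FGFR1 cells, and 12.11 to 12.75 late and 13.53 to 13.79 early in NBTII cells. Its part in the results was not tested.

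**Figure D3:**
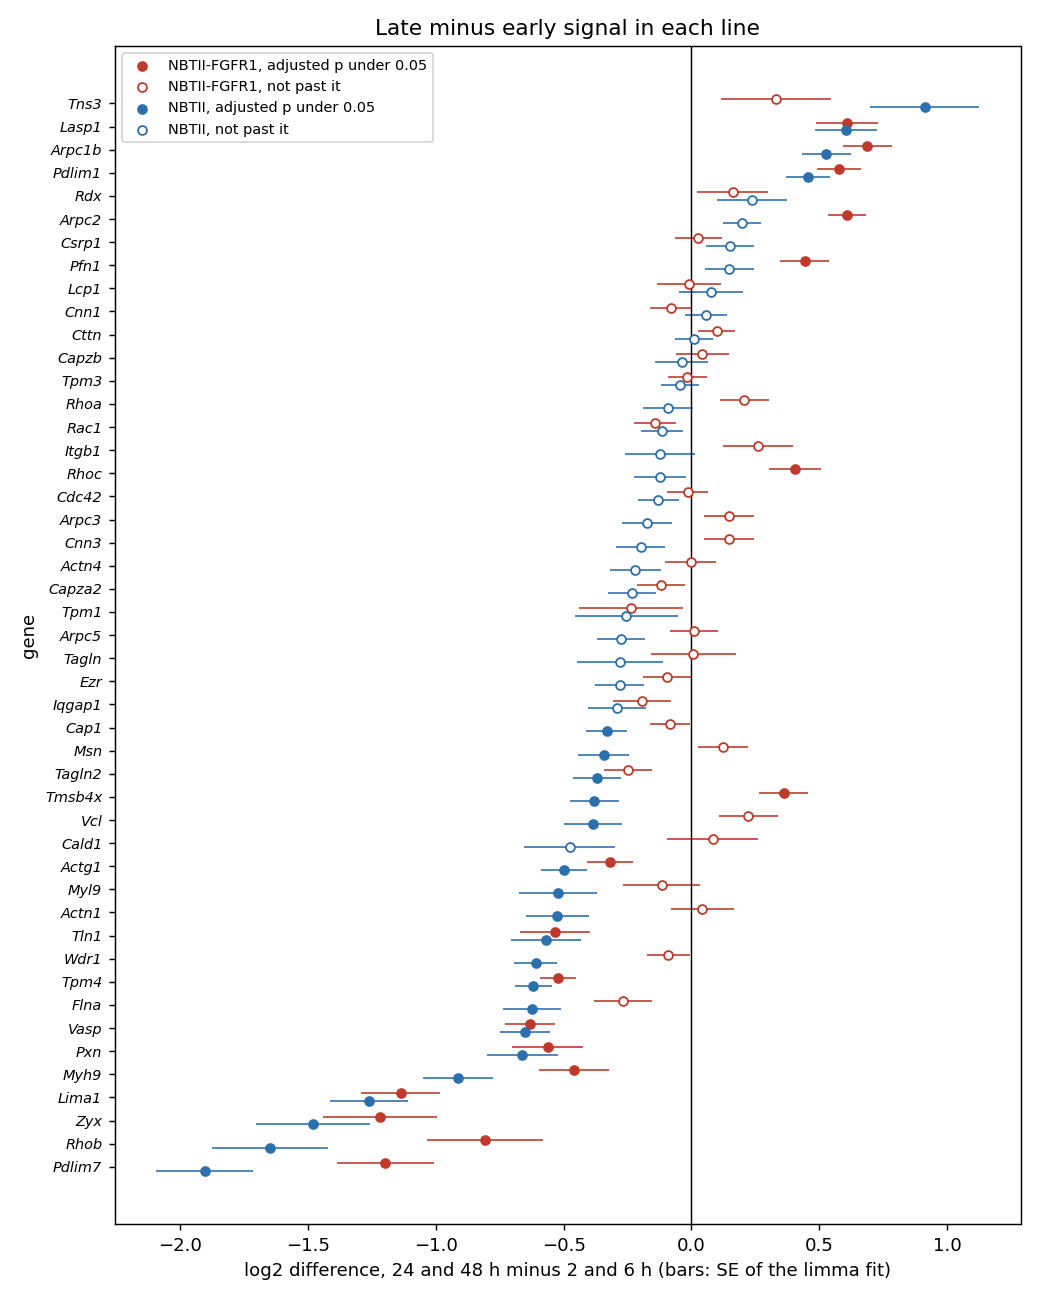
Log2 difference of 24 and 48 h minus 2 and 6 h for each of the 47 genes, NBTII-FGFR1 (red) above NBTII (blue) in each row, with bars of 1 SE from the limma fit and filled points for an adjusted p under 0.05. Zyx, Lima1, Rhob and Pdlim7 lie farthest to the left, and Lasp1, Arpc1b and Pdlim1 to the right in both lines, while Tmsb4x lies on opposite sides.

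The lines were compared over the 8 arrays each of 2 to 48 h, with 4 times weighted equally. Of the 47 genes, 7 were higher and 7 lower in NBTII-FGFR1 than in NBTII cells, against 8.34% and 8.12% of all probe sets (16.5% in all). The 14 genes are 29.8% of the 47, beside 25.8% of the brighter probe sets. Higher were Tmsb4x, Arpc1b, Capza2, Cttn, Cnn3, Msn and Rhob, and lower were Arpc5, Lcp1, Lima1, Tagln, Tagln2, Csrp1 and Iqgap1. For Tmsb4x the lowest, median and highest arrays were 11.21, 11.78 and 12.06 in NBTII-FGFR1 cells and 10.40, 11.05 and 11.09 in NBTII cells. For Lcp1, the gene for plastin 2, a bundling protein best known from leukocytes, they were 4.43, 4.67 and 4.79 in NBTII-FGFR1 cells and 5.40, 5.57 and 5.78 in NBTII cells. These 2 were the only genes of the 47 whose 8 and 8 arrays did not overlap (4.26%, beside 0.725% of all probe sets and 1.11% of the brighter ones). The differences were 0.86 ± 0.07 (adjusted p = 1.13e-05) and -0.92 ± 0.09 (adjusted p = 3.61e-05). Lcp1 was dim, with a mean of 5.14 over the 21 arrays, and is not among the brighter probe sets. Its NBTII-FGFR1 arrays from 2 to 48 h lay near the lower quartiles of the arrays (4.36 to 4.54). Lcp1 was also 5.87 in the NBTII 0 h array, and in the library labelled replicate 1 of NBTII-FGFR1 at 0 h it was 5.43, within the range of NBTII cells, against 4.75 in replicate 2. The summed level of 8 leukocyte markers was 8.30 to 8.74 in NBTII-FGFR1 cells from 2 to 48 h and 8.35 to 8.68 in NBTII cells, so the ranges overlapped.

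Rhob was 5.92, 7.93 and 8.83 in NBTII-FGFR1 cells and 5.40, 6.35 and 7.81 in NBTII cells (lowest, median and highest), a difference of 1.29 ± 0.16 (adjusted p = 0.000168) with overlapping arrays. Tagln2, a transgelin, was 10.68, 11.06 and 11.34 in NBTII-FGFR1 cells and 11.07, 11.51 and 11.73 in NBTII cells, a difference of -0.45 ± 0.07 (adjusted p = 0.000511). Lima1 and Iqgap1 differed by -0.52 and -0.33 on the log2 scale, and the cysteine-rich LIM protein gene Csrp1 by -0.30. The smaller positive differences were 0.32 for Cnn3, 0.29 for Capza2, 0.29 for Msn, 0.28 for Arpc1b and 0.23 for Cttn. The calls of Arpc5 and Tagln were lost in 6 and 11 of 18 fits that left out 1 array, and those of the other 12 genes in none.

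**Figure D4:**
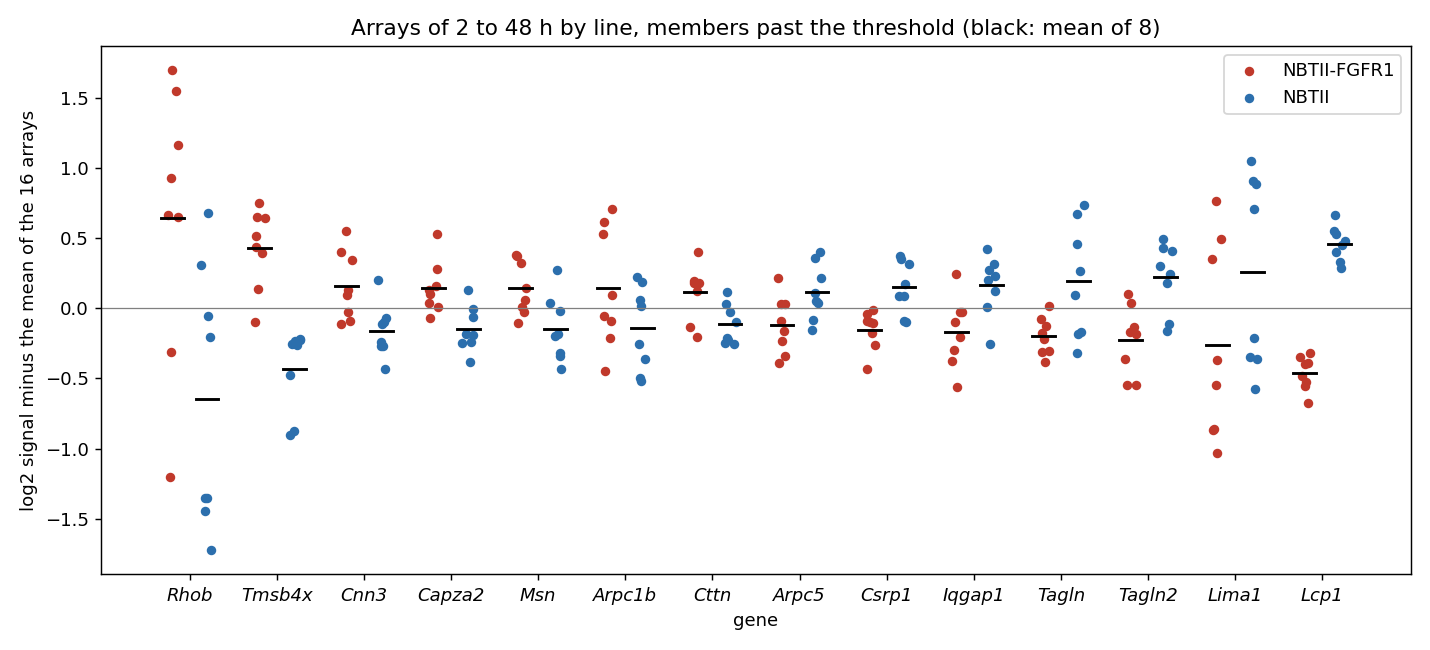
Log2 signal minus the gene's mean over 16 arrays for the 14 genes past the threshold between lines, 8 arrays of 2 to 48 h each, NBTII-FGFR1 (red, left) and NBTII (blue, right), with black bars for the mean of 8. The Tmsb4x and Lcp1 arrays separate by line, and the other 12 genes overlap.

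Where a gene had more than 1 probe set with its symbol alone, the further ones were compared with the one used. Over 13 genes and 55 such probe set results, taken where the one used had passed the test, 32 had the same sign and passed the test in the same direction, 22 had the same sign and did not pass, and 1, Pdlim7 at 2 h in NBTII cells, had the opposite sign.

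Other genes of the same machinery, which are not among the 47, were read at 6 h against 0 h, to be set beside the shares given above for all probe sets (9.38% higher and 11.9% lower in NBTII-FGFR1 cells, 3.7% and 2.2% in NBTII cells). Of 26 measured genes of other integrins and adhesion signalling, 8 (30.8%) were higher and 0 lower at 6 h in NBTII-FGFR1 cells, and 7 (26.9%) higher and 0 lower in NBTII cells. The genes with the smallest p in NBTII-FGFR1 cells were Tes, a LIM partner of zyxin, by 2.07 ± 0.18, the focal adhesion kinase relative Ptk2b by 2.22 ± 0.28, and the docking protein gene Nedd9 by 2.10 ± 0.25. Of 39 other filament regulators, 8 were higher and 8 lower (20.5% each way) at 6 h in NBTII-FGFR1 cells, where 36.6% of the brighter probe sets were called in all, and 5 higher and 1 lower in NBTII cells, with Marcksl1 (1.96 ± 0.17), Palld (1.12 ± 0.18) and Coro1c (0.71 ± 0.12) leading. Of 14 other tropomyosin and myosin genes, 3 were higher and 1 lower in NBTII-FGFR1 cells, and 2 higher and 0 lower in NBTII cells. The leading ones were the motor genes Myo1e (1.53 ± 0.19), Myo9b (1.20 ± 0.17) and Myo10 (0.94 ± 0.22). Of 7 genes of the SRF axis and muscle actins, 3 were higher at 6 h in NBTII-FGFR1 cells, Mrtfa by 0.91 ± 0.16, Acta2 by 0.84 ± 0.16 and Actg2, and 1 in NBTII cells. Actg2 lay below the lower quartile in every array, so its difference is not given. Srf itself differed by -0.22 ± 0.19 at 6 h (adjusted p = 0.477) and fell by 0.79 ± 0.13 late against early in NBTII-FGFR1 cells (adjusted p = 0.000821).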

How the data were processed

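Total RNA of 21 samples was hybridised to rat Affymetrix arrays. The log2 values were deposited by the authors, who made them with RMA, per the submitters' processing notes (version not given in the sources used here), and they were used unchanged. Of 15923 probe sets, 57 controls were left out of the tests, and the other 15866 were all tested, however dim. Groups were taken from the titles. A linear model of 12 groups (limma 3.58.1, R 4.3.3) had 9 residual and 5.68 prior degrees of freedom. Each of 14 comparisons was adjusted after Benjamini and Hochberg over the 15866 probe sets, and 0.05 was the threshold. Python 3.11.15, pandas 2.3.3, numpy 2.4.6 and matplotlib 3.10.9 served for tables and figures.

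The 52 genes, the lists and the tests were chosen with earlier results of these data known. Named with values per array were Zyx, Vcl, Actg1, Tmsb4x, Itgb1, Rhob, Tagln, Cnn1, Flna and Tns3 and, per comparison, the 3 largest rises and 3 largest falls past the threshold. From each wider list the 3 genes with the smallest p at 6 h in NBTII-FGFR1 cells were named, and 1 list is not reported here. A few further per-array values, such as those of Wdr1 and Vasp, were added after the values were seen. In simulated data with planted log2 differences of 1 in 100 probe sets, 92% were recovered for NBTII-FGFR1 at 6 h and 85% for NBTII at 6 h, and 3.52% and 6.57% of the calls were false, that of NBTII being above the threshold of 0.05. Alternatives were a filter on dim probe sets, replicate number as a block, a fit to the compared arrays alone, a further quantile normalization, a trended and robust eBayes, averaging all probe sets of each gene, and dropping each of 18 arrays. Leaving out both arrays that stood apart, and the comparison of the 6 h responses between the lines, were added after seeing the data.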

Additional observations from a re-analysis of the deposited data

Results flagged for a closer look

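Differences between the lines in the response of a gene were tested directly, and 3 genes passed. Tmsb4x differed between NBTII-FGFR1 and NBTII cells by 0.74 in its late minus early change, and by 1.42 in its 6 h minus 0 h change (log2 difference of differences, NBTII-FGFR1 minus NBTII, limma). For the 6 h minus 0 h change the values were -1.30 for Flna and -1.69 for Vcl. The 3 values at 6 h rest on a single NBTII 0 h array, which was the lowest of the 21 arrays for Flna and for Vcl.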

How the results depend on the processing

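None of the 65 single-gene results named by rule changed sign under any alternative. Over all 47 genes and 14 comparisons, 0 of 145 results past the threshold and 106 of 513 others changed sign in at least 1 of the 18 fits that dropped an array. Counts of genes past the threshold are given as the number of the 47 called in either direction. Without probe sets below the median level, 1 gene was called for NBTII at 48 h and 0 for the line difference in the late minus early change. With the replicate block, 1 was called for NBTII at 24 h and 2 at 48 h, and no other count moved by more than 1.5 times. Replicate numbers were not taken to pair the arrays, because residual correlations of same-numbered arrays over 36 pairs of groups had a median of 0.02. They ranged from -0.13 to 0.35 and were over 0.1 in 15 of the 36, so structure shared by same-numbered arrays is not excluded. With only the arrays compared, which leaves few residual degrees of freedom, the counts were 0 for NBTII-FGFR1 at 2 h and 19 at 48 h, 1 for NBTII at 2 h and 0 at 6 h, 1 for 0.5 h over both lines, and 0 for the difference between the lines at 6 h. Repeated quantile normalization gave 0 for the line difference in the late minus early change, eBayes with trend and robust set gave 1 for NBTII at 48 h, and the mean of all probe sets gave 2 for NBTII at 24 h and 5 for 0.5 h. Without both arrays that stood apart the counts were 4 for NBTII-FGFR1 at 2 h and 4 at 24 h, 3 for NBTII at 24 h and 2 at 48 h, and 0 for the line difference in the late minus early change. When 1 of 18 arrays was dropped at a time, the counts ranged from 4 to 11 for NBTII-FGFR1 at 2 h, 13 to 25 at 6 h, 2 to 17 at 24 h and 8 to 14 at 48 h. They ranged from 7 to 12 for NBTII at 2 h, 12 to 20 at 6 h, 0 to 3 at 24 h and 0 to 3 at 48 h, and from 3 to 7 at 0.5 h. Late against early gave 13 to 17 in NBTII-FGFR1 cells and 16 to 24 in NBTII cells, the lines 12 to 18, and the difference between the lines 0 to 5 for late against early and 0 to 3 at 6 h. Counts over all probe sets moved in the same fits, from 518 to 1753 for NBTII-FGFR1 at 2 h, 1898 to 3825 at 6 h, 114 to 1357 at 24 h and 1850 to 3860 at 48 h. Of 65 single-gene results named by rule, 30 kept their call in all alternatives run. The cause of the losses was not tested, beyond the fewer samples that some alternatives leave.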
